A study of Mus musculus with 12 samples.

Results

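The genes described here are 55 mouse genes of DNA replication and origin licensing, chosen by name as the parts of the machinery that copies the genome and arranged in 7 steps. All 55 were found once in each of the expression tables, which listed 43309 features for day 5 and 42802 for day 9, and all 55 passed the filter on low counts at both days. They were measured in mouse neural progenitor cells, dividing cells that can give rise to neurons and glia, of C57BL/6 strain and grown with EGF and FGF-2 at 10 ng/ml each. The cKO cells carried floxed alleles of Lmnb1, the gene of the nuclear lamina protein lamin B1, and the WT cells were lamin B1 +/+. Cells of both genotypes carried the Ai3 reporter, which makes EYFP once Cre has acted, and both received the lentivirus pSox2-Cre, so the controls had Cre too. EYFP-positive cells were sorted by flow cytometry, and polyadenylated RNA was sequenced at day 5 and at day 9 after the virus. The 12 libraries formed 4 groups of 3, namely cKO day 5, WT day 5, cKO day 9 and WT day 9. Deletion was thus limited to cells in which the virus drove Cre from the Sox2 promoter, and only cells that switched on the reporter were measured. The labels name no separate cultures or animals behind the replicates, so that the spread the p-values measure is only that among these libraries and may be technical.

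Replication starts at origins. In G1 the origin recognition complex (Orc1 to Orc6), with Cdc6 and Cdt1, loads the Mcm2 to Mcm7 ring onto DNA, which is called licensing. In S phase the kinase Cdc7 with Dbf4 helps turn the loaded ring into an active helicase by recruiting Cdc45 and the GINS complex, and polymerases, the sliding clamp and the nucleotide-making enzymes then carry the fork forward. Many of these genes are transcribed at the passage from G1 to S under E2F factors, and their messages fall when cells leave the cycle, while several Orc subunits are known to be made more evenly.

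The libraries held between 26720476 and 28540036 counts in cKO and between 29460342 and 32127629 in WT at day 5, and between 13315273 and 22988447 in cKO and between 24412935 and 24662809 in WT at day 9. A set of 15 structural RNA features, mostly ribosomal and other non-coding RNA, took 72.6%, 0.363% and 71.4% of the counts in cKO replicates 1 to 3 at day 9, against 15.9%, 35.0% and 17.9% in WT. The counts that fell on the 55 genes were therefore few in cKO replicates 1 and 3, at 3761 and 4347. There were 26092 in cKO replicate 2, and the WT libraries had from 52763 to 57160. At day 5, cKO replicate 2 and WT replicate 1 stood apart from the other 4 libraries in the same way, with a correlation of 0.757 over genes between their deviations from their group means. Structural RNA took 14.2% of the counts in that cKO library, 0.0748% in that WT library and at most 0.51% in the other 4. Lmnb1 had 37.8, 40.7 and 45.0 CPM (reads of a gene relative to its library's size, with libraries matched by the trimmed mean of M-values, TMM) in cKO and 288, 255 and 247 CPM in WT at day 5. At day 9 it had 34.3, 32.8 and 39.4 CPM in cKO and 156, 210 and 188 CPM in WT, so the targeted gene was low in all 6 cKO libraries. The 11 progenitor markers summed to between 4293 and 5461 CPM in cKO and between 4005 and 5475 CPM in WT at day 5, and to between 1365 and 1569 CPM in cKO and between 2780 and 3124 CPM in WT at day 9. Nes, a progenitor intermediate filament gene, had 81.8, 65.0 and 84.6 CPM in cKO and 250, 352 and 304 CPM in WT at day 9, while the stem cell factor gene Sox2 had 249, 285 and 249 CPM in cKO and 215, 255 and 274 CPM in WT.

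Summed over all 55, the replication genes had overlapping levels in cKO and WT cells at day 5 and were much lower in cKO cells at day 9. Outside the structural RNA features, the 55 genes together made up 0.619%, 0.572% and 0.630% of the counts in the cKO libraries and 0.602%, 0.580% and 0.599% in the WT libraries at day 5. At day 9 their share was 0.103%, 0.114% and 0.111% in the cKO libraries and 0.278%, 0.345% and 0.262% in the WT libraries. The 3 cKO values at day 9 lay close together although structural RNA took most of the counts in 2 of these libraries and almost none in the other. The share was also lower at day 9 than at day 5 in WT cells, but each day has its own table, so day and table cannot be told apart in a level. In RNA from pools of sorted cells, fewer replicating cells and less replication mRNA per cell cannot be told apart either.

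At day 5 no replication gene passed the test between cKO and WT cells. With edgeR's quasi-likelihood test and Benjamini-Hochberg adjustment over all 14849 genes tested, 0 of the 55 were lower (0.00673% of all genes were) and 0 were higher (0% of all genes). None had an unadjusted p below 0.05, which 0.599% of all genes had, and DESeq2 and limma-voom also called 0 of the 55. The median log2 fold change, cKO over WT, was 0.04 over the 55 genes and 0.01 over all genes, and the 55 values ran between -0.19 for Pold1 and 0.44 for Pola1. Standard errors had a median of 0.27 on the log2 scale and reached 0.81 for Pola1, the catalytic subunit gene of polymerase alpha. The test had little power at this day. Of all genes tested only Lmnb1 passed, with a log2 fold change of -2.68 ± 0.20 (SE, edgeR adjusted p = 0.0493). With any 1 library left out Lmnb1 did not pass either (edgeR adjusted p between 0.13 and 0.582). Changes of several-fold could therefore go uncalled, and 0 calls do not show that the replication genes were unchanged. In 1 gene the cKO libraries all lay above the WT libraries, an order that 1.5% of all genes showed, and in 0 genes all lay below them (1.35% of all genes). This was Tyms, the gene of thymidylate synthase, which makes the thymidine nucleotide.

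Ranked by p, the first 6 genes at day 5 had small positive changes, none of which passed the test (edgeR adjusted p of 0.9999 at the lowest). Tyms had 84.1, 83.9 and 80.6 CPM in cKO and 71.4, 71.5 and 78.0 CPM in WT, a log2 fold change of 0.17 ± 0.18 (SE). Pole, the catalytic subunit gene of the leading-strand polymerase epsilon, had 73.9, 95.3 and 81.2 CPM in cKO and 80.6, 70.6 and 70.0 CPM in WT (0.18 ± 0.20). For both subunits of ribonucleotide reductase, the enzyme that makes deoxynucleotides, the groups overlapped: Rrm2 had 339, 370 and 426 CPM in cKO and 346, 306 and 362 CPM in WT (0.16 ± 0.20), and Rrm1 had 390, 417 and 457 CPM in cKO and 405, 339 and 408 CPM in WT (0.13 ± 0.19). Mcm10, which helps turn the loaded helicase on, had 73.7, 65.1 and 74.3 CPM in cKO and 63.9, 64.5 and 65.8 CPM in WT (0.13 ± 0.19). Orc5, a subunit of the origin recognition complex, had 38.8, 36.6 and 43.8 CPM in cKO and 34.1, 31.9 and 41.5 CPM in WT (0.15 ± 0.22). Without cKO replicate 2 and WT replicate 1, the libraries that stood apart, 0 of the 55 genes were called and their median was 0.09.

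At day 9 the picture was different. Of the 55 genes, 45 fell in cKO cells (22.6% of the 14617 genes tested were lower), 2 rose (21% of all genes were higher) and 8 did not pass the test. The median log2 fold change was -1.56 over the 55 genes and 0.01 over all genes tested, and the values ran between -3.10 for Mcm3 and 1.49 for Orc4. The falls were between 1.48-fold and 8.60-fold, with edgeR adjusted p-values between 1.51e-05 and 0.0258. In 46 of the 55 genes every cKO library lay below every WT library, an order that 30.2% of all genes showed, and in 3 genes, Orc2, Orc3 and Orc4, every cKO library lay above (27.6% of all genes). An unadjusted p below 0.05 was found for 49 of the 55 genes and for 54.2% of all genes. A fall of more than 4-fold, that is a log2 fold change below -2, was called in 20 of the 55 genes and in 3.11% of all genes. Without cKO replicates 1 and 3, 37 of the 55 genes were lower, 36 of them among the 45, and the median was -1.49. The number lower was 20 with library totals alone, and 15, 19 and 0 in 3 tests on TPM, with all 45 values negative in each. Shares of all genes are not given here for these alternatives, so their counts show only how the calls on the 55 genes varied.

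**Figure D1:**
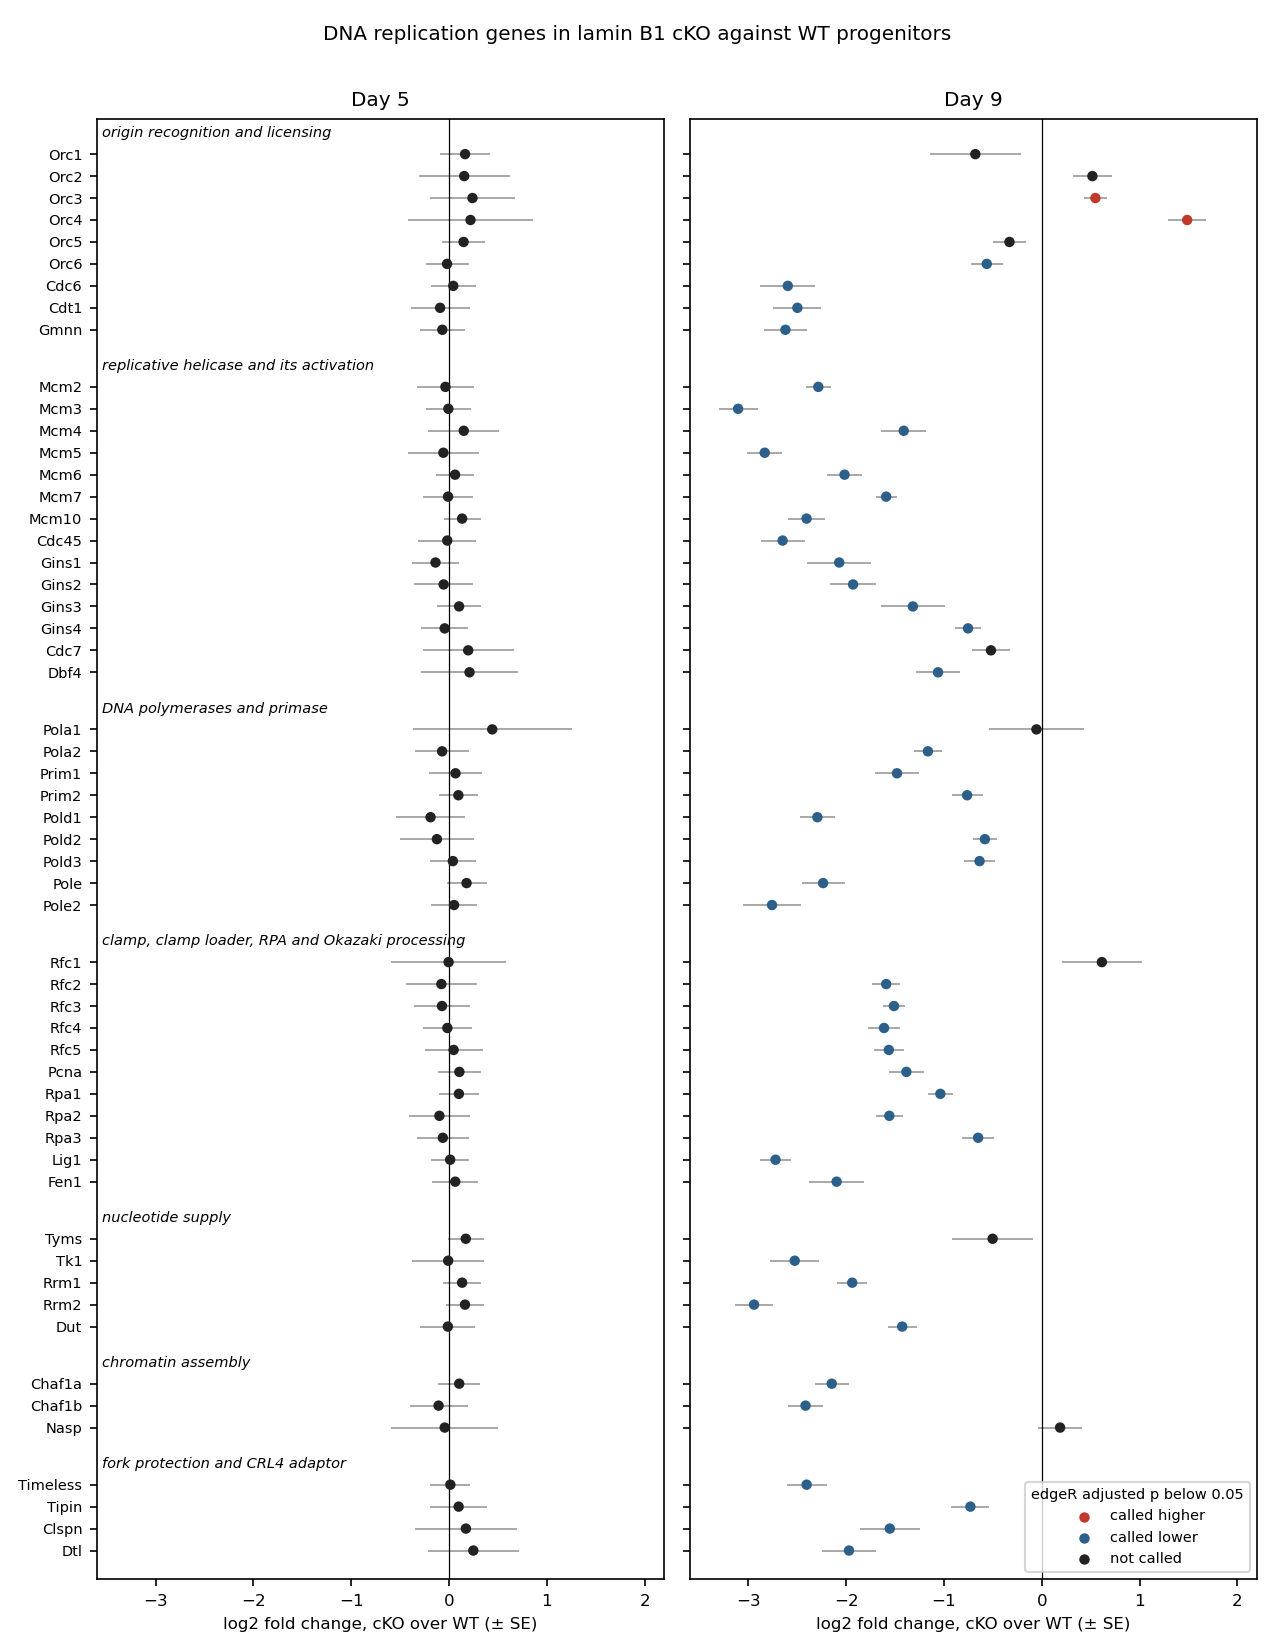
Log2 fold change of each of the 55 replication genes, cKO over WT, at day 5 (left) and day 9 (right), grouped by step; points are edgeR estimates, bars are ± 1 SE, blue points were called lower, red points higher and black points were not called. At day 5 all 55 points lie between -0.19 and 0.44 and none is called, while at day 9, 45 are called lower and the only red points are Orc3, which is negative with library totals or on TPM, and Orc4.

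Among the 9 genes of origin recognition and licensing, Gmnn, Cdc6 and Cdt1 fell steeply. In the origin recognition complex only Orc6 was called lower, while Orc3 and Orc4 were called higher. The median was -0.56, with 4 genes lower (22.6% of all genes were), 2 higher (21% of all genes) and 3 not called. Gmnn, the gene of geminin, which binds Cdt1 and prevents licensing again in the same cycle, had 1.25, 2.09 and 1.69 CPM in cKO and 10.7, 12.2 and 9.80 CPM in WT. Its log2 fold change was -2.62 ± 0.22 (edgeR adjusted p = 8.7e-05), and no cKO library came near a WT library. Cdc6 and Cdt1, which load the helicase, fell by 2.60 ± 0.28 and 2.50 ± 0.25 on the log2 scale (edgeR adjusted p = 0.000297 and 0.00019). Cdc6 had 1.56, 1.53 and 2.11 CPM in cKO and 9.15, 13.9 and 7.85 CPM in WT, and Cdt1 had 2.03, 1.51 and 1.69 CPM in cKO and 9.21, 12.01 and 7.53 CPM in WT.

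The 6 subunit genes of the origin recognition complex itself did not move together. Of all genes tested at day 9, 22.6% were lower and 21% higher. Calls in both directions among 6 genes are therefore not shown to be particular to this complex. Orc4 had 15.1, 15.6 and 14.5 CPM in cKO and 6.5, 5.63 and 4.04 CPM in WT, so the groups stood well apart. It rose by 1.49 ± 0.19 on the log2 scale (edgeR adjusted p = 0.000725), was not called in a fit of all 12 libraries together (1.49, adjusted p = 0.0829) and had between 0.615 and 1.63 over the alternatives (adjusted p between 3.47e-08 and 0.726). Orc3 had 22.4, 22.4 and 22.9 CPM in cKO and 16.9, 15.3 and 14.1 CPM in WT, an increase of 0.55 ± 0.12 (edgeR adjusted p = 0.00835) whose sign depended on the scaling. With library totals alone it was -0.00191 and on TPM (transcript abundance per length, scaled to a fixed sum) it was -0.28, where the median of all genes was -0.506 and -0.786, so that Orc3 lay 0.504 and 0.506 above that median. Without cKO replicates 1 and 3, the libraries with most structural RNA, the lone cKO library is assumed to vary like the others; Orc4 then passed at 1.5 (edgeR adjusted p = 0.00833) and Orc3 had 0.504 (adjusted p = 0.0947). Orc6 fell by 0.56 ± 0.16 (edgeR adjusted p = 0.0258), with 11.7, 16.4 and 12.7 CPM in cKO and 17.7, 22.3 and 20.8 CPM in WT. This was the weakest of the 45 falls, and the call was lost without cKO replicate 1 (adjusted p = 0.0987), cKO replicate 3 (0.0905), WT replicate 2 (0.0989) or WT replicate 3 (0.0604).

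Orc1, Orc2 and Orc5 did not pass the test. Orc5 had 16.1, 22.5 and 16.9 CPM in cKO and 20.03, 25.6 and 24.7 CPM in WT, a log2 fold change of -0.33 ± 0.17. It passed without cKO replicate 2 (-0.526, adjusted p by edgeR 0.0212). Orc2 had 19.5, 23.0 and 17.2 CPM in cKO and 16.3, 15.2 and 10.4 CPM in WT (0.52 ± 0.20, edgeR adjusted p = 0.0619), with no overlap between the groups. It passed with a filter of at least 1 CPM (0.542, adjusted p = 0.0495) and with a replicate block (0.527, adjusted p = 0.0321). On TPM it was -0.332, where the median of all genes was -0.786, so that Orc2 lay 0.454 above that median. Orc1, the subunit gene of this complex best known for its E2F control, was scarce, with 1.71, 0.830 and 0.98 CPM in cKO and 1.13, 2.80 and 1.45 CPM in WT, and its groups overlapped (-0.68 ± 0.47). Its change ran between -1.27 and -0.19 over the alternatives. It was -1.13 without cKO replicates 1 and 3, so the size of the Orc1 change is not well determined.

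**Figure D2:**
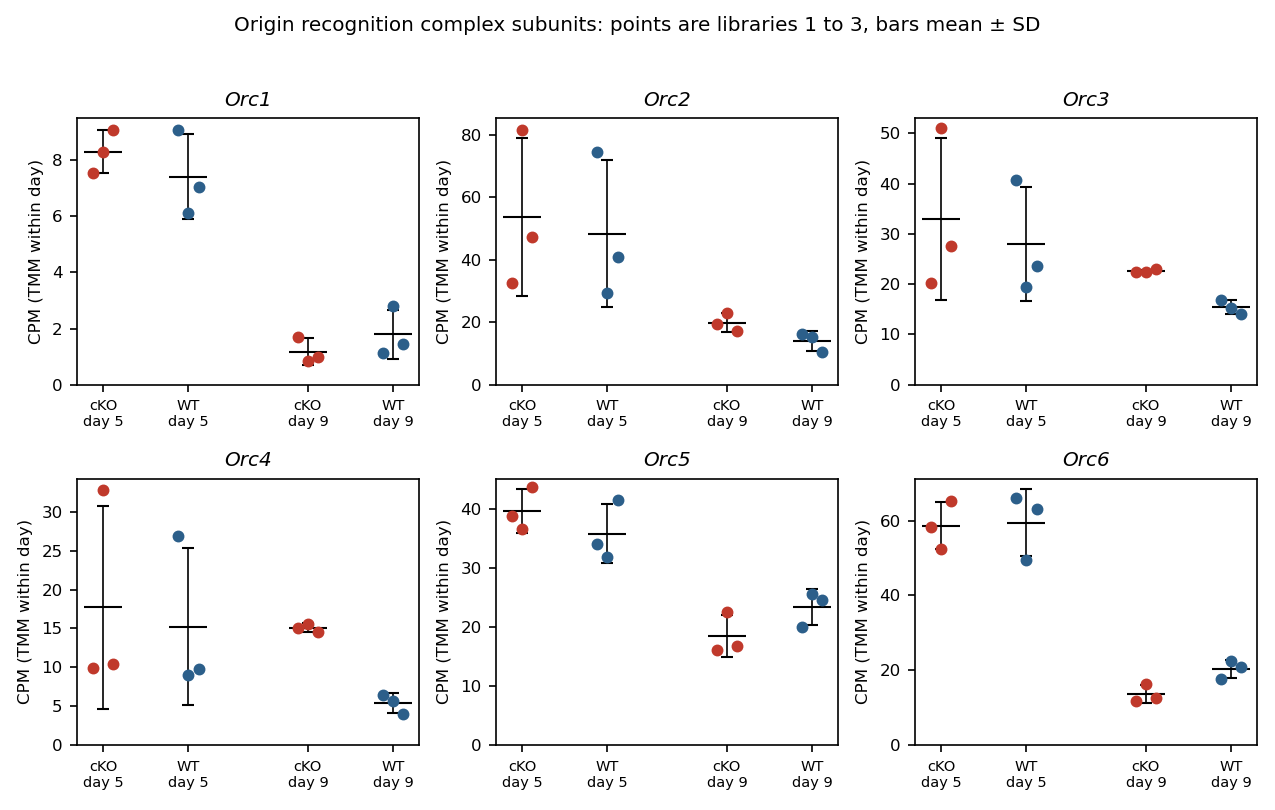
CPM of Orc1 to Orc6 in each library of cKO and WT cells at day 5 and day 9; points are the 3 libraries of a group, the long dash is their mean and the bar ± SD. At day 9 the 3 cKO points of Orc3 and Orc4 lie above all WT points on the TMM scale (the change of Orc3 is negative with library totals or TPM) and those of Orc6 lie below them; at day 5 the high points of Orc2, Orc3 and Orc4 are cKO replicate 2 and WT replicate 1.

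Of the 14 genes of the replicative helicase and its activation, 13 fell, none was higher and the median was -1.97, with values between -3.10 and -0.52. Mcm3 had 6.08, 9.73 and 7.46 CPM in cKO and 63.6, 80.4 and 61.3 CPM in WT, a fall of 8.60-fold (log2 fold change -3.10 ± 0.20, edgeR adjusted p = 2.45e-05). Mcm5 had 7.48, 7.85 and 10.4 CPM in cKO and 62.5, 69.1 and 50.7 CPM in WT (-2.83 ± 0.18). Mcm2 had 13.7, 16.2 and 14.6 CPM in cKO and 71.8, 81.3 and 65.5 CPM in WT (-2.28 ± 0.13). In these 3 subunits the highest cKO library lay far below the lowest WT library. Mcm6 had 14.8, 20.8 and 20.5 CPM in cKO and 65.7, 91.6 and 71.5 CPM in WT (-2.02 ± 0.18). Mcm7 had 32.1, 33.0 and 38.6 CPM in cKO and 101.6, 110.2 and 100.01 CPM in WT (-1.59 ± 0.11). Mcm4 had 12.5, 16.04 and 11.4 CPM in cKO and 31.5, 47.5 and 28.3 CPM in WT (-1.41 ± 0.23), the smallest change of the 6 ring subunits. Adjusted p-values from edgeR ran between 1.51e-05 for Mcm2 and 0.00256 for Mcm4 in these subunits, and in none did the groups overlap.

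**Figure D3:**
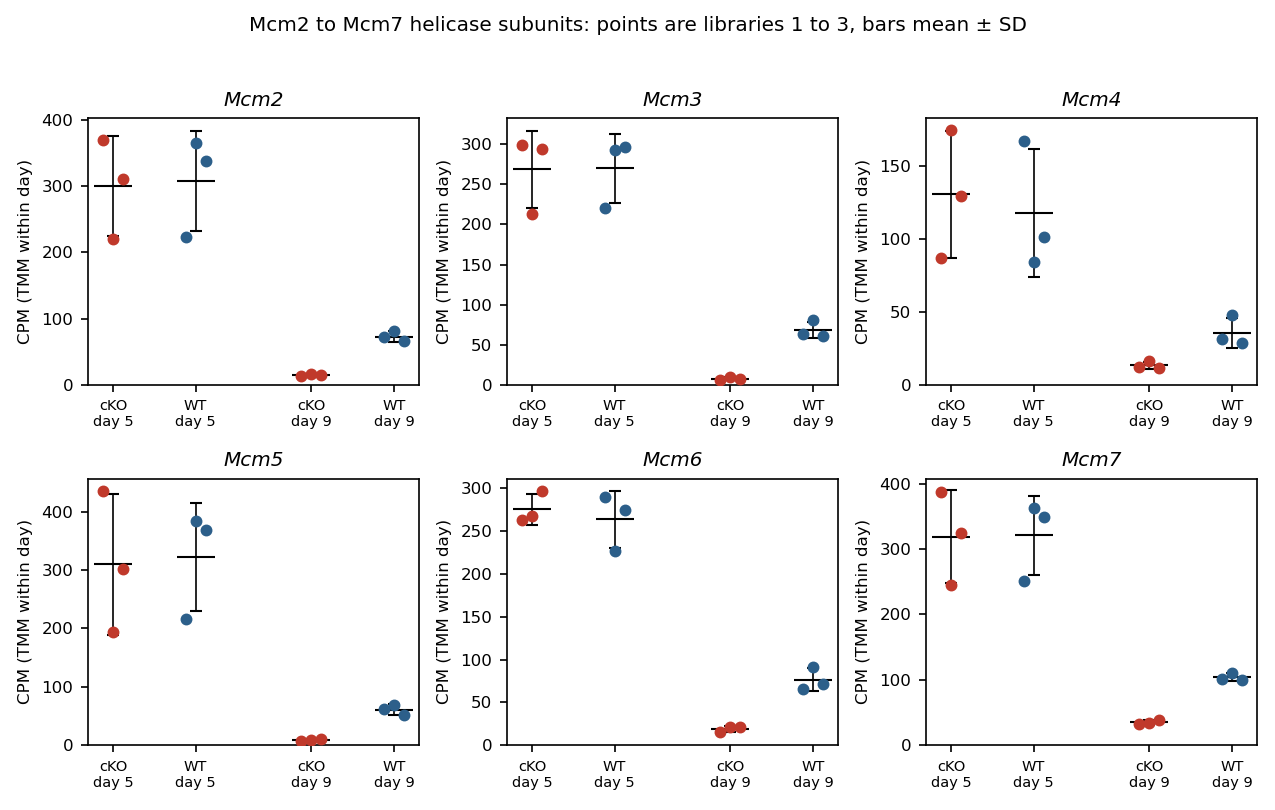
CPM of the helicase subunits Mcm2 to Mcm7 in each library of cKO and WT cells at day 5 and day 9; points are the 3 libraries of a group, the long dash is their mean and the bar ± SD. At day 5 cKO and WT overlap in every panel, and at day 9 every cKO point lies below every WT point, for Mcm3 between 6.08 and 9.73 CPM in cKO and between 61.3 and 80.4 CPM in WT.

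Because the ring holds 1 copy of each subunit, the make-up of its messages was compared per transcript length, as each gene's share of the summed TPM of Mcm2 to Mcm7 within a library, which does not depend on the scaling of the library. At day 9 Mcm3 made up 7.39%, 8.29% and 5.78% of the sum in cKO and 15.4%, 16.6% and 15.1% in WT. Mcm5 made up 6.21%, 5.92% and 7.14% in cKO and 12.6%, 11.5% and 10.7% in WT. Mcm7 held the largest share in every day 9 library, with 50.9%, 43.9% and 53.5% in cKO and 35.8%, 32.9% and 37.1% in WT. Shares add up to a fixed total in each library. The higher share of Mcm7 therefore means that it fell by less than the sum, not that it rose (log2 fold change -1.59). The groups did not overlap for Mcm2, Mcm3, Mcm5 and Mcm7 and overlapped for Mcm4 and Mcm6. At day 5 the groups overlapped for all 6 genes, and Mcm3 made up between 17.8% and 19.4% in cKO and between 18.5% and 18.8% in WT. In the origin recognition complex at day 9, the share of Orc4 was 26.7%, 23.3% and 20.8% of the Orc1 to Orc6 sum in cKO and 11.9%, 8.69% and 7.23% in WT, while that of Orc6 was 13.5%, 18.3% and 14.5% in cKO and 25.8%, 30.4% and 31.6% in WT. An exact permutation test of 3 libraries against 3 cannot go below 0.1 two-sided, so these shares are given as values.

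**Figure D4:**
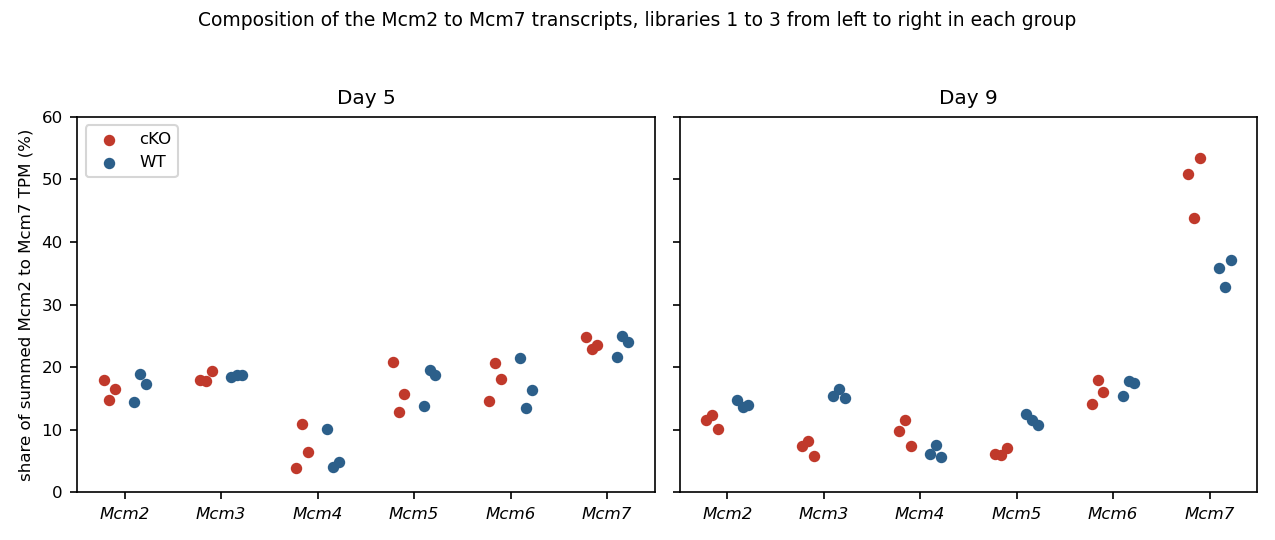
Share of each subunit in the summed TPM of Mcm2 to Mcm7 (%), per library, at day 5 (left) and day 9 (right), with the 3 cKO libraries in red left of the 3 WT libraries in blue. At day 9 the shares of Mcm3 and Mcm5 are lower in all cKO libraries and that of Mcm7 is higher, between 43.9% and 53.5% in cKO and between 32.9% and 37.1% in WT, while at day 5 the groups overlap for each subunit. Shares add up to a fixed total, and the level of Mcm7 itself fell at day 9.

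The genes that activate the ring fell as well. Cdc45, which completes the active helicase together with GINS, fell by 2.65 ± 0.22 on the log2 scale (edgeR adjusted p = 8.95e-05), and Mcm10 by 2.4 ± 0.18. The 4 GINS genes ranged widely: Gins1 changed by -2.07, Gins2 by -1.93, Gins3 by -1.32 and Gins4 by -0.75. Gins3 had 0.779, 1.76 and 1.83 CPM in cKO and 3.28, 4.52 and 3.55 CPM in WT and lost its call without WT replicate 2 (edgeR adjusted p = 0.066). Dbf4, the regulatory subunit gene of the Cdc7 kinase, fell by 1.06 ± 0.23. Cdc7, the kinase gene itself, was the one gene of this step that missed the threshold, with 9.35, 8.02 and 6.33 CPM in cKO and 10.6, 13.5 and 9.86 CPM in WT (-0.52 ± 0.19, edgeR adjusted p = 0.0591), although every cKO library lay below every WT library. With no filter on low counts it passed (-0.62, adjusted p = 0.0356).

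Of the 9 polymerase and primase genes, 8 fell and the median was -1.16. Polymerase epsilon and the catalytic subunit of polymerase delta fell most. Pole2, the second subunit gene of polymerase epsilon, had 0.624, 0.754 and 0.704 CPM in cKO and 4.24, 6.27 and 4.01 CPM in WT (-2.76 ± 0.30, edgeR adjusted p = 0.000296). In cKO these values rest on few counts, 4 in replicate 1, 30 in replicate 2 and 5 in replicate 3. Pole fell by 2.24 ± 0.22 and Pold1, the catalytic subunit gene of the lagging-strand polymerase delta, by 2.29 ± 0.18. The accessory subunit genes of polymerase delta fell by much less, Pold2 by 0.58 ± 0.13 and Pold3 by 0.64 ± 0.16. Within the primase complex, which lays down the RNA-DNA primers, Prim1 fell by 1.48, Pola2 by 1.16 and Prim2 by 0.76. Pola1 did not pass the test and its groups overlapped, with 2.81, 1.84 and 3.52 CPM in cKO and 4.10, 2.94 and 1.16 CPM in WT (-0.05 ± 0.48, edgeR adjusted p = 0.939). Its estimate changed sign with the library left out, between -0.431 and 0.36.

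The clamp, its loader, the single-strand binding complex RPA and the Okazaki fragment enzymes held 11 genes, of which 10 fell, with a median of -1.56. Lig1, the ligase gene that seals Okazaki fragments, had 9.04, 11.01 and 9.85 CPM in cKO and 59.8, 78.8 and 60.5 CPM in WT (-2.72 ± 0.16, edgeR adjusted p = 1.61e-05). The 3 cKO values lay within 2 CPM of each other and far below WT. Fen1, the nuclease gene that trims the fragments before ligation, fell by 2.10 ± 0.28. Pcna, the clamp itself, had 39.3, 51.9 and 37.7 CPM in cKO and 98.8, 138 and 102 CPM in WT, and fell by 1.38 ± 0.18 (edgeR adjusted p = 0.000787). The 4 small subunit genes of the clamp loader had similar changes, Rfc2 by -1.59, Rfc3 by -1.51, Rfc4 by -1.61 and Rfc5 by -1.56. Without cKO replicates 1 and 3 they were less alike, at -1.45, -1.46, -1.49 and -1.84 in the same order. The large subunit gene Rfc1 did not follow and did not pass the test, with 17.1, 16.6 and 13.4 CPM in cKO and 14.8, 11.3 and 4.68 CPM in WT (0.61 ± 0.41, edgeR adjusted p = 0.26). The RPA genes fell unequally, Rpa2 by 1.56, Rpa1 by 1.04 and Rpa3 by 0.65 on the log2 scale.

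In nucleotide supply 4 of 5 genes fell and the median was -1.94. Rrm2, the ribonucleotide reductase subunit made in S phase, had 10.6, 12.9 and 13.6 CPM in cKO and 81.8, 122 and 83.0 CPM in WT, a 7.68-fold fall (-2.94 ± 0.19, edgeR adjusted p = 3.25e-05). Its partner Rrm1 had 40.1, 46.1 and 38.1 CPM in cKO and 134, 191 and 153 CPM in WT (-1.94 ± 0.15). The ratio of Rrm2 to Rrm1 thus also lay lower in cKO libraries. Tk1, the thymidine kinase gene of cycling cells, fell by 2.53 ± 0.25, and Dut, whose enzyme keeps uracil out of DNA, by 1.43 ± 0.15. Tyms did not pass the test, with 12.3, 6.71 and 20.7 CPM in cKO and 18.03, 21.9 and 14.9 CPM in WT (-0.50 ± 0.41, edgeR adjusted p = 0.354). On TPM rescaled to leave out structural RNA its groups did not overlap, with 8.70, 9.69 and 17.2 in cKO and 29.3, 38.6 and 27.9 in WT, so for Tyms the unit changed how far the groups lay apart. Leaving out 1 library gave between -0.98 and -0.161, and without cKO replicates 1 and 3 Tyms was called lower (-1.48, edgeR adjusted p = 0.00839).

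Of the 3 chromatin assembly genes 2 fell, with a median of -2.15. Chaf1b, a subunit gene of the factor CAF-1 that places histones behind the fork, had 2.81, 2.67 and 3.10 CPM in cKO and 14.9, 17.4 and 12.9 CPM in WT (-2.41 ± 0.18, edgeR adjusted p = 4.52e-05). Its partner Chaf1a fell by 2.15 ± 0.18. Nasp, which shelters histones before assembly, had 36.8, 37.0 and 30.8 CPM in cKO and 35.7, 36.1 and 20.2 CPM in WT (0.19 ± 0.23, edgeR adjusted p = 0.522). All 4 genes of fork protection and the CRL4 adaptor fell, with a median of -1.76. Timeless, which holds the fork together with Tipin, had 3.43, 4.25 and 5.49 CPM in cKO and 20.5, 27.9 and 21.2 CPM in WT (-2.4 ± 0.21, edgeR adjusted p = 9.57e-05). Tipin itself had 10.4, 11.4 and 8.02 CPM in cKO and 14.8, 20.6 and 14.6 CPM in WT (-0.73 ± 0.19, edgeR adjusted p = 0.0184). That call was lost without cKO replicate 1 (adjusted p = 0.0551), cKO replicate 3 (0.0612) or WT replicate 2 (0.0728). Dtl, the adaptor that has Cdt1 degraded in S phase, fell by 1.97 ± 0.27 and Clspn, the fork and checkpoint mediator gene, by 1.55 ± 0.31.

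Whether the cKO effect itself differed between the days was tested in 1 edgeR fit of all 12 libraries, as the difference between the day 9 and the day 5 log2 fold change. The difference was negative and passed in 36 of the 55 genes (5.14% of 15323 genes), positive in none (2.57% of all genes), and did not pass in 19. The count was 15 with library totals alone and 16 with a replicate block. The 6 smallest p-values belonged to Lig1 (-2.73 ± 0.22), Rrm2 (-3.10 ± 0.26), Mcm10 (-2.54 ± 0.22), Mcm3 (-3.10 ± 0.30), Rrm1 (-2.07 ± 0.23) and Timeless (-2.41 ± 0.27), with edgeR adjusted p between 5.2e-05 and 0.000295. By step, the difference passed in 10 of 14 helicase genes, 9 of 11 clamp and Okazaki genes, 6 of 9 polymerase genes, 4 of 5 nucleotide genes, 3 of 9 licensing genes, 2 of 3 chromatin genes and 2 of 4 fork genes. The 3 licensing genes were Gmnn, Cdc6 and Cdt1. No subunit of the origin recognition complex passed: Orc1 had -0.83 ± 0.51, Orc2 0.36 ± 0.56, Orc3 0.31 ± 0.49, Orc4 1.26 ± 0.74, Orc5 -0.48 ± 0.26 and Orc6 -0.54 ± 0.26 (edgeR adjusted p between 0.298 and 0.782). The rise of Orc3 and Orc4 at day 9 is therefore not shown to be absent at day 5. With cKO replicate 2 of day 5 left out, Orc4 passed at 2.08 (adjusted p = 0.0396). With both day 5 libraries that stood apart left out, a setting chosen after the data were seen, the number of genes that passed was 42. Shares of all genes are not given here for these other settings. Their counts show only how the calls on the 55 genes varied.

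The genes that did not fall had a lower GC content than most that did. The longest coding transcript had a median GC of 49.4% in the 45 genes that fell and 44.9% in the other 10, whose values ran between 36.8% for Orc4 and 47.8% for Tyms. All coding genes tested at day 9 had a median of 50.3%, so the genes that fell lay nearer to that than the other 10. Across the 55 genes, which share all libraries, GC and the day 9 log2 fold change had a Pearson r of -0.55 and a Spearman rho of -0.54, whereas transcript length had an r of -0.01. The same property went with the day 5 libraries that stood apart: the mean log2 level in cKO replicate 2 and WT replicate 1 minus the other 4 libraries had an r of -0.67 with GC over the 55 genes. In that pair Pola1 lay 2.09 above the other libraries on the log2 scale, Orc4 1.60, Rfc1 1.49 and Nasp 1.37, while Pold2 lay at -0.92 and Tk1 at -0.91. Over the 55 genes this day 5 difference had an r of 0.62 with the day 9 log2 fold change (Spearman rho 0.52). Its r with transcript length was 0.31. The day 9 trend with GC was not limited to replication genes. When all tested coding genes were ordered by GC and cut into 5 bins of equal size, the median day 9 log2 fold change was 0.611 in the bin of lowest GC, then 0.09, -0.125, -0.266 and, in the bin of highest GC, -0.263. The part of GC content in the day 9 values of Orc3, Orc4 and the genes that did not pass was not tested.

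**Figure D5:**
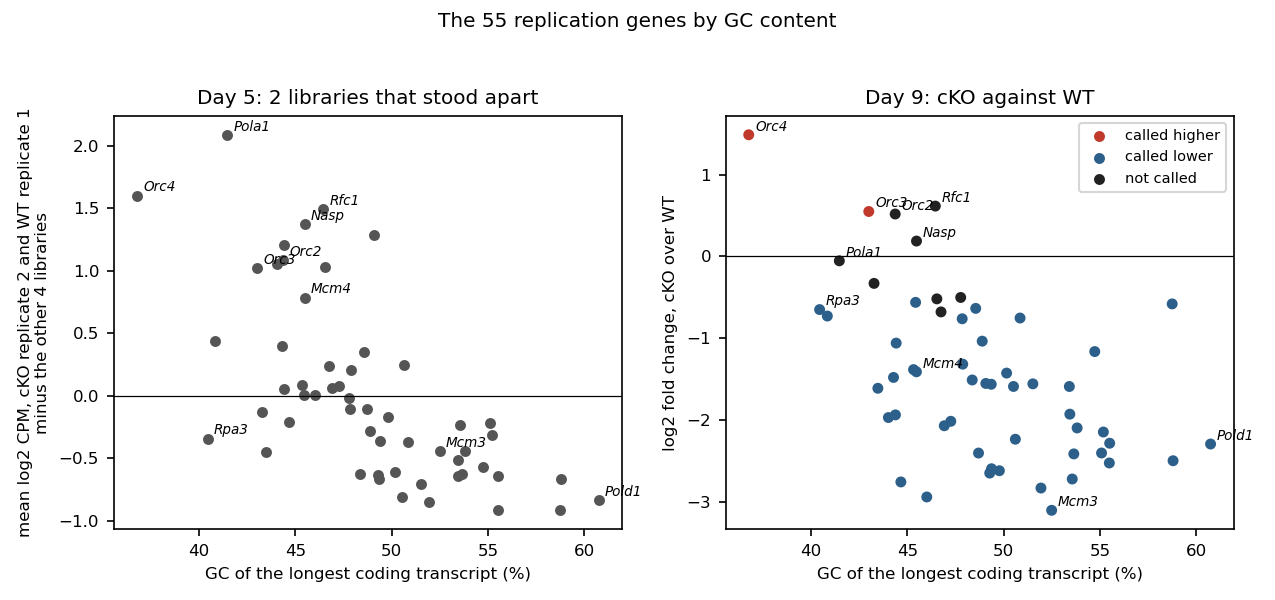
Each of the 55 genes by the GC content of its longest coding transcript (%, horizontal axis), against its mean log2 CPM in cKO replicate 2 and WT replicate 1 minus the other 4 day 5 libraries (left) and its day 9 log2 fold change, cKO over WT (right; red called higher, blue called lower, black not called). Points fall to the right in both panels (r of -0.67 and -0.55), and the 10 genes that were not called lower at day 9 all have a GC of 47.8% or less.

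The promoters of the genes were read because many replication genes are known E2F targets. Of the 55 genes, 46 matched the RefSeq promoter table of GRCm38.p6, which spans 250 bases before and 50 after each start. The E2F consensus words TTTCCCGC and TTTGGCGC, searched on both strands, occurred in 12 of the 36 matched genes that fell (33.3%), in 2 of the 10 matched genes that did not (20%, Orc3 and Pola1) and in 1.8% of 27025 genes in the table. Only exact matches were counted, so a gene without these words can still hold a variant of the site. The genes of the whole table were not matched to the 55 for base composition. CCAAT, searched on both strands, was in 58.3% of the genes that fell, 60% of those that did not and 41.1% of all genes. TTTGAA, the core of the CHR element of later cell cycle genes, was in 16.7%, 20% and 20.2%. The stretch from 120 bases before to 30 after the start is shown for 3 genes that fell and for Orc3, which carries the word and did not fall, with the E2F words in capitals. Mcm3 (chr1:20820283-20820432, minus strand) carries one on the opposite strand from base 20 of the transcript and another from base 39, beyond the stretch shown. Mcm6 (chr1:128359676-128359825, minus strand) has 2, Dtl (chr1:191575515-191575664, minus strand) has one 8 bases before the start, and Orc3 (chr4:34614913-34615062, minus strand) has one 41 bases before it.
Mcm3: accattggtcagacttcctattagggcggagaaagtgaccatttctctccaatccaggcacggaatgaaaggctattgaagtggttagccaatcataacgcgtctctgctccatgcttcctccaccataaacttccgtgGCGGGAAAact
Mcm6: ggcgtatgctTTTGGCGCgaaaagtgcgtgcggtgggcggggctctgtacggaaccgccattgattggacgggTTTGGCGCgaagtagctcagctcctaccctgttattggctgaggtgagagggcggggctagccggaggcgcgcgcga
Dtl: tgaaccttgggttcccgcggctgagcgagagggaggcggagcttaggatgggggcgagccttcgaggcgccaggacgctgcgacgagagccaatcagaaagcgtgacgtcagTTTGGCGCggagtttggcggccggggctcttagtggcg
Orc3: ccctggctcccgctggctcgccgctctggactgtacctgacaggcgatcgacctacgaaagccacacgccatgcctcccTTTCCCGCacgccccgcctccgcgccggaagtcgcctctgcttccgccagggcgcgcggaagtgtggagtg

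Of 61 further genes of the same pathway, 34 fell at day 9 (22.6% of all genes were lower), 4 rose (21% of all genes were higher) and 23 did not pass, with a median of -0.48, and 0 passed at day 5 (edgeR; 0 also had an unadjusted p below 0.05). In other replisome and origin firing genes, 18 of 27 fell and 2 rose. Ticrr, which helps load Cdc45, had 2.81, 2.79 and 2.81 CPM in cKO and 8.65, 14.2 and 9.04 CPM in WT (-1.92 ± 0.24), and Rnaseh2c, a subunit gene of the RNase that removes ribonucleotides from DNA, fell by 1.28 ± 0.16. Donson, a helicase assembly factor gene, had -0.16 ± 0.19 and did not pass. Top1, the topoisomerase gene that relaxes DNA ahead of the fork, had 48.3, 24.7 and 40.4 CPM in cKO and 13.3, 9.75 and 5.12 CPM in WT (log2 fold change 2 ± 0.42, edgeR adjusted p = 0.0126). Rif1, which restrains origin firing, had 13.6, 2.87 and 16.7 CPM in cKO and 2.4, 1.69 and 1.63 CPM in WT (2.48 ± 0.67, edgeR adjusted p = 0.0298), so its high values were those of cKO replicates 1 and 3, the libraries rich in structural RNA. Without these replicates Rif1 had 0.553 (adjusted p = 0.283) and Top1 1.36 (adjusted p = 0.18).

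Among other nucleotide supply genes, 8 of 18 fell and 1 rose. Umps of pyrimidine synthesis changed by -1.34 ± 0.13 and Shmt1 of folate metabolism by -1.32 ± 0.20, while Gart of purine synthesis had 48.8, 61.9 and 51.8 CPM in cKO and 55.5, 53.5 and 53.7 CPM in WT (log2 fold change 0.003, adjusted p = 0.986). Rrm2b, the ribonucleotide reductase subunit induced by p53 outside S phase, had 9.66, 13.4 and 8.30 CPM in cKO and 6.36, 3.94 and 2.21 CPM in WT, opposite in direction to Rrm2 (1.34 ± 0.39, edgeR adjusted p = 0.0323, and 1.65 with adjusted p = 0.13 without cKO replicates 1 and 3). In other chromatin replication genes 5 of 6 fell. Uhrf1, which helps DNA methylation to be copied behind the fork, had 8.73, 9.05 and 11.1 CPM in cKO and 85.2, 106 and 74.8 CPM in WT (-3.21 ± 0.17). The histone chaperone gene Asf1b fell by 2.53 ± 0.24, whereas its sister gene Asf1a had 0.08 ± 0.15. Among 10 replication checkpoint genes 3 fell and 1 rose, counts near or below the 22.6% lower and 21% higher of all genes. Wee1, a kinase gene that delays mitosis, fell by 2.35 ± 0.20, Chek1, a checkpoint kinase gene, by 1.73 ± 0.40 and the phosphatase gene Cdc25a by 0.48 ± 0.13. Rad1 of the checkpoint clamp had 0.06 ± 0.16. Atr, the kinase gene at the head of this checkpoint, had 14.2, 3.90 and 13.6 CPM in cKO and 3.36, 1.97 and 1.45 CPM in WT (2.18 ± 0.59, edgeR adjusted p = 0.0281). It too was high in cKO replicates 1 and 3 and had 0.747 without them (adjusted p = 0.293). The call of Chek1 was lost without these replicates (-1.38, adjusted p = 0.0528) or without WT replicate 2 (-1.56, adjusted p = 0.0526). Of these rises, that of Rif1 was lost without any one of cKO replicate 1 or 3 or of the WT replicates (edgeR adjusted p up to 0.129), that of Atr without cKO replicate 1 or 3 or WT replicate 2 or 3 (up to 0.0982), and that of Rrm2b without any one cKO replicate or WT replicate 2 (up to 0.112). Top1 lost its call without WT replicate 2 (adjusted p = 0.0502).

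Markers of the cycle and of other cell types moved at day 9 beside the replication genes. For comparison with the counts below, 22.6% of all genes tested at day 9 were lower and 21% were higher. Of 12 mitosis genes 11 fell, with a median of -3.41, and their summed level was between 56.3 and 74.4 CPM in cKO and between 492 and 650 CPM in WT. The gene that did not pass was Mki67, with 7.48, 1.28 and 13.8 CPM in cKO and 8.96, 10.9 and 6.02 CPM in WT. Its higher cKO values were those of replicates 1 and 3, the libraries rich in structural RNA, and replicate 2 lay below every WT library. In the oligodendrocyte lineage 9 of 13 tested markers rose and 4 fell (summed between 4364 and 5441 CPM in cKO and between 3010 and 3452 CPM in WT; Mobp was at 0 in WT). Of 12 astrocyte markers 9 rose and 1 fell (between 3409 and 4102 CPM in cKO and between 2165 and 2482 CPM in WT), and of 11 neuronal markers 7 rose and none fell (between 530 and 595 CPM in cKO and between 130 and 297 CPM in WT). Of 11 progenitor markers 6 fell and 2 rose, and all 5 tested ependymal markers fell (between 8.26 and 10.8 CPM in cKO and between 17.2 and 17.8 CPM in WT, with Tmem212 at 0 in both). Microglia and macrophage markers summed to at most 0.844 CPM in cKO and 0.145 CPM in WT, with Aif1, C1qa, C1qb and Tyrobp at 0, and endothelial and mural markers to between 4.05 and 6.05 CPM in cKO and between 3.34 and 3.42 CPM in WT, with Cdh5 at 0. Of 3 tested endothelial and mural markers 1 fell and 2 rose. At day 5 none of these lists held a gene that passed, a day at which 0.00673% of all genes were lower and 0% higher. The part of the change in cell types in the fall of the replication genes was not tested.

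Some values rest on genes that share sequence with others, since strand use is not given in the sources used here. Exons of Gins2 overlap those of Gse1 by 2758 bases, those of Chaf1a overlap Ubxn6 by 4648 bases, and those of Fen1 overlap the antisense gene Gm10143 by 1909 bases, so part of their counts can belong to the neighbour. Exons of Orc2 overlap Nif3l1 by 1150 bases, of Rfc2 Lat2 by 952, of Rfc5 Wsb2 by 499 and of Orc4 Acvr2a by 446. Those of Orc1 overlap Gm12743 by 376 bases, of Lig1 Zswim9 by 247 and of Pole2 Gm49384 by 245. Mcm7 shares exon bases with 4 other genes, the longest overlap being 321 bases with Ap4m1. Copies of at least 95% identity exist for Pcna (Pcna-ps2, 99.2% over 781 bases), Mcm7 (Gm5487, 97.7% over 2152 bases), Rfc5 (Gm12870, 96.2% over 1020 bases) and Rrm2 (Gm48455, 95.5% over 419 bases), and reads in those stretches could be shared between the copies.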

How the data were processed

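RNA was measured in 12 libraries of sorted neural progenitor cells, 3 per genotype and day. Expected counts of genes were deposited by the authors, and so were TPM values, in tables of their own. Per the submitters' processing notes, RSEM, Bowtie2 and mm10 were used; annotation, trimming and strandedness: not given in the sources used here. Each day had its own tables, in which 42425 of 43309 features at day 5 (97.96%) and 41839 of 42802 at day 9 (97.75%) matched the reference gene names. Expected counts, as deposited, were rounded before testing. TPM values, as deposited, served for shares within a complex and for alternative tests.

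The members and lists were chosen with earlier results of these data known. Genes were tested over the whole table in R 4.3.3 with edgeR 4.0.16 (filterByExpr, TMM, robust quasi-likelihood fit and test, Benjamini-Hochberg threshold 0.05), each day alone on 6 libraries; the day difference was fitted on 12 libraries over 41592 symbols found once in both tables. The standard error was taken as the size of the log2 fold change over the root of its F statistic. No set test was run. GC and coordinates come from the GENCODE annotation of GRCm38 and promoters from RefSeq GRCm38.p6. The tests were also tried on simulated counts. These were built from the fitted levels with less spread between libraries than either day had, so that trial does not show the power of the tests here. Depth ran between 13315273 and 32127629 counts, and counts at day 9 were fewest in cKO replicates 1 and 3. No replicate pair had counts that agreed within sampling noise (chi-square per degree of freedom between 5.31 and 1623). The structural RNA set was chosen after seeing the tables and includes the protein-coding gene Lars2.

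Named genes followed a rule: at day 9 Mcm2 to Mcm7 and, per step, the most negative gene, the gene with the smallest change and each gene called higher; at day 5 the 6 smallest p-values; for the day difference the 6 smallest p-values and each Orc subunit that did not pass; per pathway list the 2 falls with the smallest adjusted p, each gene called higher and the smallest change. All other members appear by step with counts, medians or single changes. The genes Cdc25a, Mki67, Nes and Sox2 were added after their values were seen. Alternatives were DESeq2 1.42.0, limma-voom and limma on log2 TPM (limma 3.58.1; pseudocounts 1 and 0.1), RLE size factors, library totals, other filters, structural RNA left out, all 12 libraries in 1 fit, a replicate block and each library left out.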

Additional observations from a re-analysis of the deposited data

Results flagged for a closer look

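The cKO effect differed between day 9 and day 5 in 36 of the 55 replication genes by the test of the difference itself in the edgeR fit of 12 libraries, all of them lower at day 9, which 5.14% of all genes were. The count was 15 with library totals alone and 16 with a replicate block, settings for which no share of all genes is given here. The genes with the smallest p were Lig1 with a day 9 minus day 5 difference of -2.73 on the log2 scale, Rrm2 with -3.10, Mcm10 with -2.54, Mcm3 with -3.10, Rrm1 with -2.07 and Timeless with -2.41. In these 6 genes every cKO library lay below every WT library at day 9, and the groups overlapped at day 5.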

How the results depend on the processing

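Day 9 calls depended on the scaling more than on the tool. The 45 falls all stayed negative in each of the 19 alternatives. DESeq2, RLE size factors, 3 other settings and the replicate block called all 45 again, voom 44 and the fit of all 12 libraries 39, and single libraries left out gave between 42 and 46. The number lower was 20 with library totals only, 15 on log2(TPM + 1), 19 on log2(TPM + 0.1) and 0 on log2(TPM + 1) with no filter. The number higher (2) was 0 under library totals, each TPM setting and the fit of all 12 libraries, and 1 with no filter on low counts or without cKO replicates 1 and 3. Without these replicates 37 fell. The median (-1.56) was -2.06 with library totals, where all genes had -0.506, and -2.21, -2.56 and -2.21 on TPM, where all genes had -0.786, -1.02 and -0.146; relative to those medians they were -1.55, -1.42, -1.54 and -2.06. The 36 genes whose effect differed between days were 15 with library totals and 16 with the replicate block, and between 27 and 38 with 1 library left out. Replicate numbers did not pair the libraries (correlations of same-numbered deviations -0.721, -0.498 and 0.534 at day 5 and -0.00138, -0.2 and -0.0628 at day 9); the block gave 45 lower and 3 higher genes at day 9 and 0 at day 5. The 34 other pathway genes that fell were 6 with library totals, 7, 9 and 0 on TPM, 20 in the fit of 12 libraries and 16 without cKO replicates 1 and 3, and between 25 and 36 with 1 library left out; the 4 that rose were 0 under library totals, TPM and the fit of 12 libraries, 1 with no filter or without those 2 cKO replicates, and between 0 and 4 with 1 library left out. Shares of all genes called are not given for these settings, so the counts show only how the calls on these genes varied. The causes were not tested.

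Signs changed in some genes, partly with the shift of all genes given above, which left Orc3, Orc2 and Rfc1 above the median of all genes with library totals or on filtered TPM. Values follow in the order library totals, log2(TPM + 1), log2(TPM + 0.1) and log2(TPM + 1) with no filter. Orc3 had -0.00191, -0.28, -0.309 and -0.28; Nasp -0.306, -0.822, -0.881 and -0.822; Gart -0.457, -0.967, -1.02 and -0.967; Asf1a -0.351, -0.871, -1 and -0.871; Rad1 -0.592, -1.14, -1.25 and -1.14. On the 3 TPM settings alone Orc2 had -0.332, -0.414 and -0.332, Rfc1 -0.00882, -0.0377 and -0.00882, and Tyms at day 5 -0.0881, -0.0897 and -0.0881. With no filter on low counts Gart had -0.0989, Asf1a -0.0192 and Rad1 -0.0583. Rad1 also had -0.0419 with voom and -0.232 without cKO replicates 1 and 3, and Gart -0.0057 without structural RNA. With the replicate block Gart had -0.00663 and Pola1 0.0704. Leaving out 1 library gave Pola1 between -0.431 and 0.36, Nasp between -0.0557 and 0.318, Gart between -0.126 and 0.064, Asf1a between -0.091 and 0.136 and Rad1 between -0.0592 and 0.172, and, for the day difference, Orc2 between -0.119 and 0.811 and Orc3 between -0.0884 and 0.784, which had -0.118 with library totals. Lmnb1 at day 5 lay between -2.77 and -2.60 over all alternatives (adjusted p between 8.88e-34 and 1). Depth limits the scarcest genes, with a lowest count of 4 for Pole2 in cKO replicate 1 at day 9.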
